A study of Homo sapiens with 2 samples.

Results

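The genes described here are 38 of the 20033 protein-coding genes annotated on the main chromosomes, and they encode the machinery that cuts and finishes the 3′ ends of transcripts made by RNA polymerase II. They were chosen by gene name for their role and not by a threshold on measured values, although earlier results of these data were known when the list was made. In 6 groups, they comprise 7 genes of the cleavage and polyadenylation specificity factor (CPSF), 4 of the cleavage stimulation factor (CstF), 4 of poly(A) synthesis and binding, 6 of cleavage regulation and termination, 3 of histone 3′ ends, and 14 of the Integrator complex. The data were CUT&Tag profiles of NUDT21 in J.gamma1, a human T-ALL (T-cell acute lymphoblastic leukemia) line grown in culture. CUT&Tag uses an antibody to tether a transposase near the protein of interest, and the DNA fragments it releases are sequenced. Both libraries, replicate 1 and replicate 2, used the same NUDT21 antibody on cells with no named treatment and formed 1 group, and the study's methods call them independent biological replicates. No library with a control antibody and no library of cells lacking NUDT21 was analysed here, so the comparisons below were between genes and between the replicates, and none was between conditions.

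Most messenger RNAs are cut downstream of a poly(A) signal, usually AAUAAA. CPSF reads that signal and makes the cut, CstF binds the GU-rich stretch downstream of it, and poly(A) polymerase adds the tail. NUDT21 belongs to a further factor, cleavage factor Im, which binds UGUA upstream of the cut and influences which of several poly(A) sites is used. Replication-dependent histone messages end in a stem-loop and carry no tail, and the Integrator complex cuts small nuclear RNAs and many short transcripts near promoters, so the 38 genes cover most routes by which these transcripts end.

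The deposited lists held 92722 peaks (replicate 1) and 66671 peaks (replicate 2) on the main chromosomes. Absolute depth is unknown, since no read totals were used, but the deposited values gave the number of stacked fragments at each summit, with a median of 30 in replicate 1 and 20 in replicate 2. A promoter peak was a peak that came within 3000 bp of at least 1 annotated transcript start of a gene, and there were 47160 and 36209 of them. Fold is the enrichment at the summit over the control level, the background that the peak caller set against the signal there. The values do not show whether that level came from the same library or from a separate control library, although the pileup of replicate 1 was scaled, as happens when a library is compared with a control of another depth. The percentile is the rank of that fold among all promoter peaks of the same list, with 100 the highest. A list gives only peaks past its threshold, so a gene without a peak is not shown to lack NUDT21.

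The sequences at 5 summits are shown first, because they mark where the signal stood highest at members with strong promoter peaks in both libraries. PABPN1 and SSU72 had the same summit base in both replicates, as did INTS13, and the summits of INTS4 and SLBP were within 7 bp and 5 bp of each other. All were read from hg38 on the strand of the gene around the replicate 1 summit, with a shorter window where annotated transcript sequence lay nearby. PABPN1 was read at chr14:23321112-23321212 (+ strand), INTS4 at chr11:77994855-77994955 (− strand), SLBP at chr4:1712502-1712602 (− strand), SSU72 at chr1:1574816-1574845 (− strand) and INTS13 at chr12:26938237-26938266 (− strand). Capitals mark matches on either strand to GGGCGG, the core of SP/KLF sites, or CCAAT, the core of NFY sites.
PABPN1: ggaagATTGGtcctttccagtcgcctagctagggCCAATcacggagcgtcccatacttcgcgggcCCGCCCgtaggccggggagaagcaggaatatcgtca
INTS4: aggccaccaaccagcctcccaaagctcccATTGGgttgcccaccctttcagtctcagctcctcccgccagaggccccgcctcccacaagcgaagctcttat
SLBP: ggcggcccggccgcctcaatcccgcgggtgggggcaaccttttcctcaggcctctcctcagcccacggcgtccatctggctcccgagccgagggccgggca
SSU72: ttgtggagtgcgggtctctgctgcggacgc
INTS13: tgggtgggtcgtacgcttagggggccgtgg
These windows were rich in G and C, from 61.4% in PABPN1 to 74.3% in SLBP. Each of the 68 summits of the members' strongest promoter peaks was searched with its surrounding 100 bases, and all 68 occurred once on the main chromosomes. The 2 summits of INTS3 also occurred on another sequence of the assembly.

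A promoter peak was present in both replicates for 31 of the 38 genes, 81.6% (Wilson 95% interval 66.6% to 90.8%, which covers counting error only). Over all protein-coding genes the share was 57%. Promoters of the members were slightly richer in G and C than the rest, with a median of 63.4% against 61.3% in the 500 bp either side of the canonical start. Weighted to the members' GC content in bins of 5 percentage points, the share over all protein-coding genes was 65.1%, below the members' interval. Between the quartiles of the members' GC content (57.7% and 69.0%), 16 of 18 members had a promoter peak in both lists. The Wilson 95% interval of that share, 67.2% to 96.9%, covered the 68.8% of the 8699 protein-coding genes in that range.

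Members also had more annotated starts, a median of 8.5 against 5.0, and each start adds a chance to meet a peak. With the canonical start alone and a peak edge within 1000 bp of it, an alternative added after the data were seen, 30 of 38 members had a peak in both replicates (78.9%, Wilson 95% interval 63.7% to 88.9%), beside 48.1% of all protein-coding genes and 56.2% after GC weighting. Replicate 1 held a promoter peak at 35 members, replicate 2 at 33, and CSTF2T was the only member with none in either list. No test of a condition was possible with 2 libraries of 1 group, and genes are not replicates, so these shares are descriptions.

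**Figure D1:**
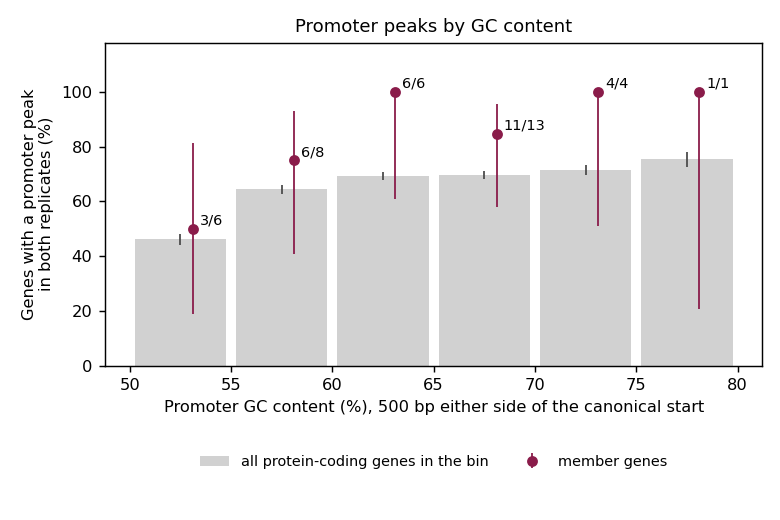
Share of genes whose promoter had a peak in both replicates (vertical axis, percent) by promoter GC content in bins of 5 percentage points (horizontal axis). Grey bars are all protein-coding genes in the bin, points are the member genes with their counts, and error bars are Wilson 95% intervals. The members' share was 3 of 6 in the lowest bin, beside 46.1% of all genes there, and 6 of 6 in the bin from 60% to 65%, beside 69.2%.

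At 60% GC or more, 22 of 24 members had a promoter peak in both lists, beside 70.5% of all protein-coding genes in that range. Under 60% GC it was 9 of 14, beside 40.4%. All genes in that lower range reached down to 25.1% GC, and the members only to 51.1%. In the bins from 50% to 60%, where these members lay, they stood at 3 of 6 and 6 of 8. Those shares were nearer to the 46.1% and 64.4% of all genes in the same bins. Those without a peak in both lists at 60% GC or more were SCAF8 and LSM11, and the 5 below were CSTF2, CSTF2T, CSTF3, PAPOLG and INTS12.

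The members' strongest promoter peaks also ranked higher by fold than those of all genes. The median percentile of the strongest promoter peak was 85.4 in replicate 1 (35 genes) and 81.3 in replicate 2 (33 genes), a mean of 83.3 ± 2.9 (SD, n = 2), beside 76.4 and 72.6 over all protein-coding genes with a promoter peak. GC weighting left the values for all genes at 76.5 and 72.6. Ranked with 1 peak per gene, the members' median was 61.3, on a scale where all genes centre on the midpoint. Members had more annotated starts, and the part of that in these percentiles was not tested. Over the 31 members with a peak in both lists, percentiles of the replicates had a Spearman rho of 0.71, beside 0.80 over all such genes, where genes share both libraries and are not independent. The median gap between replicates was 11.0 percentile points for members and 8.8 for all genes. Replicate 1 was higher at 21 members and replicate 2 at 10, and 4 members (INTS8, PAPOLA, INTS2 and SCAF4) had gaps of over 30 points. Both percentiles lay above 90 at 10 members, namely SSU72, INTS11, SLBP, PPP1CA, CPSF1, WDR33, INTS13, INTS1, INTS4 and PABPN1, beside 23.2% of all genes with a peak in both lists.

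**Figure D2:**
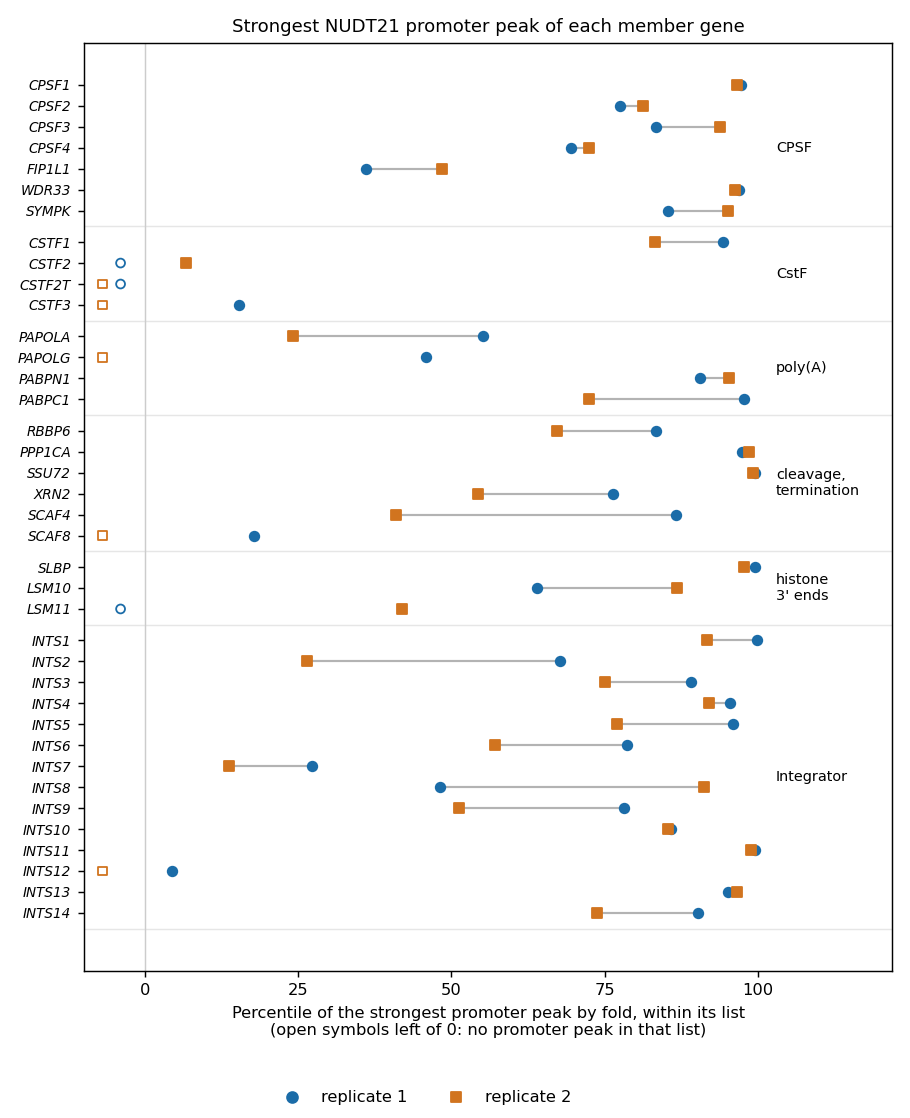
Percentile, by fold, of the strongest promoter peak of each of the 38 genes in its own list (horizontal axis), grouped by role. Circles are replicate 1, squares are replicate 2, grey lines join both values of a gene, and open symbols mark a list with no promoter peak. The CPSF group has 7 of 7 genes in both lists, and the CstF group 1 of 4.

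All 7 CPSF genes had promoter peaks in both replicates, with median percentiles of 83.4 and 93.8. CPSF1, the scaffold of the factor, had the highest mean percentile of the group. Its strongest peak had a fold of 11.7 in replicate 1 and 9.71 in replicate 2, with 164 and 79 stacked fragments over control levels of 12 and 7.24. Those summits lay at −4112 bp and −4048 bp from the canonical start, and both peaks also reached the start of SLC39A4, so the assignment to CPSF1 rests on the peak's edge. The CPSF1 peaks that covered the canonical start had folds of 8.82 and 5.61, higher in replicate 1. Their summits lay at 138 bp and 1162 bp from that start, so the replicate 2 fold was measured inside the gene.

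WDR33, which with CPSF4 contacts the poly(A) signal, had folds of 11.1 and 9.45 from 64 and 34 fragments. Its peaks met the start of no other gene and were the strongest of the group at a canonical start in both lists. CPSF4 itself had lower folds of 5.14 and 5.44, shared with the start of PTCD1. CPSF3, the endonuclease, had folds of 6.37 and 8.35 from 68 and 48 fragments, at a start shared with ITGB1BP1. CPSF2, its partner without catalytic activity, had folds of 5.73 and 6.12 at a start shared with NDUFB1, with summits at −211 bp and −216 bp. For both genes replicate 2 had the higher fold from fewer fragments, over a lower control level. FIP1L1, which links CPSF to poly(A) polymerase, had the lowest mean percentile of the group, with folds of 3.69 and 4.34 and percentiles of 36.1 and 48.4. SYMPK, a scaffold between CPSF and CstF, had its strongest peak inside the gene, at 922 bp and 900 bp from another annotated start of its own, with folds of 6.65 and 8.80.

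CstF was the group with fewest peaks. CSTF1, the subunit with WD repeats, was the only one of 4 with a promoter peak in both replicates (Wilson 95% interval 4.56% to 69.9%). Its promoter is shared with AURKA, the mitotic kinase. The folds were 9.09 and 6.33, from 68 and 30 fragments over control levels of 6.0 and 3.9, and replicate 1 was higher. CSTF2, which binds the GU-rich element, had no promoter peak in replicate 1 and a weak one in replicate 2, with a fold of 2.86 from 21 fragments (exact Poisson 95% interval 13.0 to 32.1, counting error only) over a control level of 6.68. CSTF3, the scaffold of CstF, had one in replicate 1 alone, with a fold of 2.94 from 34 fragments. CSTF2T, an autosomal paralog of CSTF2 with a single annotated start, had none in either list. GC content at these 3 starts was low, at 52.4% for CSTF2, 51.1% for CSTF3 and 51.1% for CSTF2T, and 46.1% of all genes between 50% and 55% had a promoter peak in both lists.

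The promoters of CSTF2 and its paralog are shown side by side because they stand at the low end of the group. Both are the 250 bases before the RefSeq start on GRCh38.p14, identical in hg38, at chrX:100820141-100820390 (+ strand) and chr10:51699596-51699845 (− strand). Capitals mark matches on either strand to GGGCGG, to CCGGAA, a form of ETS site, and to TGTA, the DNA form of the UGUA that NUDT21 binds in RNA.
CSTF2: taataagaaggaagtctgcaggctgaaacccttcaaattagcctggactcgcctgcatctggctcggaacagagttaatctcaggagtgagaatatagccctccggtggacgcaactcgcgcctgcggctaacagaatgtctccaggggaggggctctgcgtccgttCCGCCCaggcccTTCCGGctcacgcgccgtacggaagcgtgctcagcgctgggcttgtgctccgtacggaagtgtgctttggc
CSTF2T: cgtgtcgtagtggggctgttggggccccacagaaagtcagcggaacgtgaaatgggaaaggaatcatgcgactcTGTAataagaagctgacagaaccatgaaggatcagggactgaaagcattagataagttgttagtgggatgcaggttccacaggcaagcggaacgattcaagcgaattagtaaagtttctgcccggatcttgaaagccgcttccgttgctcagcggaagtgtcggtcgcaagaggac
CSTF2 held the exact words GGGCGG and CCGGAA, which CSTF2T lacked over these 250 bases, and CSTF2T held TGTA. Near forms were not marked, and CGGAAG, which is close to the ETS word, occurs in both sequences.

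Of the genes of poly(A) synthesis and binding, 3 of 4 had promoter peaks in both lists (Wilson 95% interval 30.1% to 95.4%). PABPN1, which coats the growing tail in the nucleus, had folds of 7.74 and 8.87 from 125 and 82 fragments, over control levels of 14 and 8.35. Both summits lay at −295 bp, in the window printed above, where 2 CCAAT matches and 1 GGGCGG match fell within 101 bases. PABPC1, the cytoplasmic poly(A)-binding protein, had folds of 12.4 and 5.44, much the higher in replicate 1, from 188 and 56 fragments. PAPOLA, the main nuclear poly(A) polymerase, had folds of only 4.40 and 3.52 and percentiles of 55.1 and 24.2. Its relative PAPOLG had a peak in replicate 1 alone, with a fold of 4.03 from 48 fragments over a control level of 10.2.

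Among the genes of cleavage regulation and termination, 5 of 6 had promoter peaks in both lists. SSU72, a phosphatase of the polymerase's C-terminal domain, had a fold of 19.7 in replicate 1 and 14.0 in replicate 2, 16.9 ± 4.06 (SD, n = 2). These came from 108 and 52 fragments over low control levels of 4.09 and 2.78, and stood at the 99.6th and 99.3rd percentiles. Both summits lay on the same base, 32 bp downstream of the canonical start, in peaks at chr1:1573993-1575988 and chr1:1574089-1575968 that reached no other protein-coding start. PPP1CA, a catalytic subunit of protein phosphatase 1, had folds of 11.9 and 12.0, but from different peaks of a wide domain described below.

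RBBP6, needed for cleavage, had folds of 6.37 and 5.13, and XRN2, the exonuclease that degrades the downstream RNA after the cut, had folds of 5.64 and 4.57. The summits of XRN2 lay at 194 bp and 196 bp, inside the gene. SCAF4 and SCAF8 are related proteins that restrain early polyadenylation. SCAF4 had a fold of 6.88 from 81 fragments in replicate 1, and in replicate 2 a short peak of 429 bp at −878 bp with a fold of 4.08 from 20 fragments. A second replicate 2 peak, of 805 bp, had its summit 1 bp from the canonical start, with a fold of 3.12 from 19 fragments. By the strongest peaks, the SCAF4 percentiles of 86.7 and 40.9 differed most among the members. SCAF8 had a peak in replicate 1 alone, where 68 fragments stood over a control level of 20, a fold of 3.03.

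SLBP, which binds the histone stem-loop, had the strongest peaks of its group. The fold was 19.0 in replicate 1, from 182 fragments over a control level of 7.89, and 10.7 in replicate 2, from 69 fragments over 5.57, and replicate 1 was higher. Both peaks, at chr4:1710821-1713704 and chr4:1712015-1713850, also reached a start of TACC3, with summits at −233 bp and −228 bp from the SLBP start. At 77.0%, the SLBP promoter had the highest GC content of the members. LSM10 and LSM11 are subunits of the U7 particle that cuts histone messages. LSM10 had folds of 4.81 and 6.78, and LSM11 had a peak in replicate 2 alone, with a fold of 4.11 from only 12 fragments (exact Poisson 95% interval 6.2 to 21.0) over a control level of 2.16.

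Of the 14 Integrator genes, 13 had promoter peaks in both lists, and INTS12 was the exception. The median percentiles of the group were 87.5 and 77.0, but its members spanned nearly the whole range of folds. INTS11, the endonuclease, had peaks over its canonical start with folds of 18.9 and 10.7, from 145 and 69 fragments. INTS9, its partner without catalytic activity, had folds of 5.79 and 4.43 at a start shared with HMBOX1. INTS4, which holds both together, had folds of 9.87 and 7.76 from 106 and 50 fragments, in short peaks of 515 bp and 442 bp that met no other gene's start. The cleavage module thus had percentiles above 90 for INTS11 and INTS4 in both lists and lower ones for INTS9, 78.2 and 51.2.

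INTS13, INTS14 and INTS10 form another module. INTS13 had folds of 9.67 and 9.68, 9.68 ± 0.00716 (SD, n = 2), from 126 and 75 fragments, with the same summit base in both lists and a start of FGFR1OP2 in reach. INTS14 had folds of 7.65 and 5.53, shared with SLC24A1, and INTS10 had folds of 6.72 and 6.59. INTS6 and INTS8 take part in the phosphatase module of Integrator. INTS8 had a fold of 4.11 in replicate 1 and 7.60 in replicate 2, from nearly equal fragments, 36 and 34, over control levels of 7.31 and 3.61. INTS6 had 138 fragments over a control level of 21 at its start in replicate 1, a fold of 5.82, and no peak within 1000 bp of the canonical start in replicate 2. Its only promoter peak there, with a fold of 4.66 at −3735 bp, had a counterpart in replicate 1 with a fold of 4.41 at −3738 bp.

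At the low end of the Integrator group, INTS7 and INTS2, both of the core, had the lowest mean percentiles among genes with peaks in both lists. INTS7 had folds of 3.37 and 3.17 at a start shared with DTL, with percentiles of 27.2 and 13.7. The low folds went with high control levels of 22 and 12.3, and not with few fragments, since 83 and 41 were stacked there. INTS2 had folds of 5.02 and 3.64. INTS5, with a single annotated start, had folds of 10.2 and 5.76. INTS12, a small subunit with a PHD finger, had a peak in replicate 1 alone, with a fold of 2.42 from 41 fragments over a control level of 15, at a start shared with GSTCD.

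The members with a peak in a single list had low −log10 q values there, though not all had low folds. In replicate 1 these 4 peaks had −log10 q values of 4.51 to 12.5, and 2 of the 31 members in both lists lay at or below the highest of them, while the median of the 31 was 31.0. In replicate 2 the 2 peaks had values of 3.66 and 4.22, below all 31 members in both lists, which started at 6.12. By fold, PAPOLG stood at percentile 45.9 in replicate 1 and LSM11 at 42.0 in replicate 2. INTS7, with peaks in both lists, stood lower, at 27.2 and 13.7. With only peaks of −log10 q of at least 5, the count of members in both lists was again 31, while the share of all protein-coding genes was 49.4%.

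Summits of the strongest peaks near the canonical start lay mostly upstream of it. In replicate 1, 23 of 35 members (65.7%) had the summit upstream, with a median position of −153 bp, and 31 (88.6%) lay within 300 bp of the start. In replicate 2 it was 19 of 32 (59.4%), with a median of −146 bp and 21 (65.6%) within 300 bp. Over all protein-coding genes 53.2% and 52.8% of summits lay upstream, the medians were −34 bp and −44 bp, and 63.8% and 54.4% lay within 300 bp. For protein-coding genes between the members' GC quartiles, 52.6% and 52.5% lay upstream, with medians of −25 bp and −30 bp. Within 300 bp lay 68% and 59.7% of their summits. Between replicates, the summits of the 30 members with such a peak in both were a median of 80 bp apart, and 16 of 30 were within 100 bp, beside 48% of all genes. The median length of these peaks was 1253 bp and 1071 bp, beside 1166 bp and 956 bp over all genes. For genes between the members' GC quartiles it was 1185 bp and 1010 bp.

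**Figure D3:**
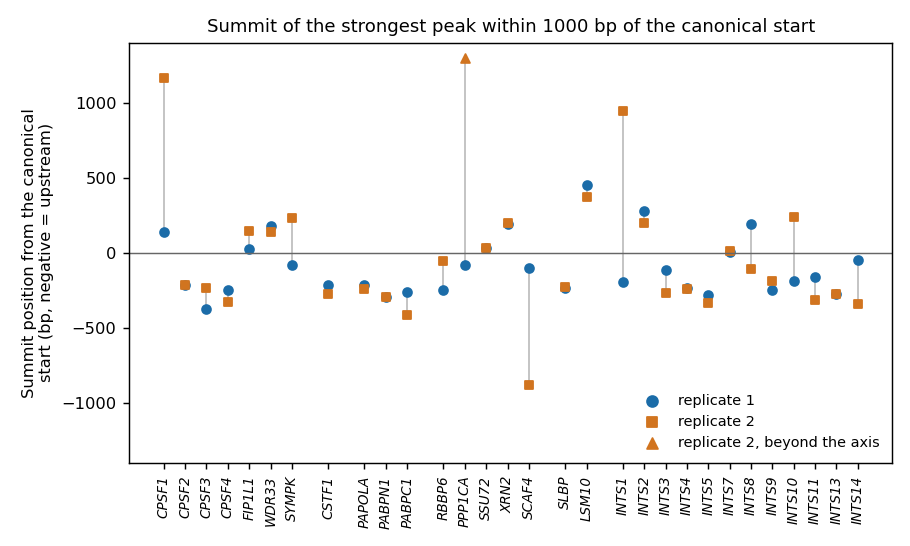
Position of the summit of the strongest peak within 1000 bp of the canonical start, relative to that start (vertical axis, bp, negative upstream), for the 30 members with such a peak in both replicates. Circles are replicate 1, squares are replicate 2, grey lines join both summits of a gene, and a triangle marks the replicate 2 summit of PPP1CA, drawn at the edge of the axis because it lay at 4341 bp. Of the plotted summits, most lie below 0.

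A protein-coding neighbour shared the strongest promoter peak at 13 of the 31 members with peaks in both lists, beside 32% of the 11425 protein-coding genes with peaks in both. By group these were 5 of 7 CPSF genes, 5 of the 13 Integrator genes with peaks in both lists, and 1 each in CstF, termination and histone processing. They include FIP1L1, whose neighbour is an annotated coding gene without a name. At these 13 members, the peaks could not be assigned to 1 gene.

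Wide domains crossed a few members in gene-dense regions. In replicate 1, 6 members (CPSF1, INTS1, INTS11, PPP1CA, SSU72 and SYMPK) had a promoter peak of 10000 bp or more, and in replicate 2 only INTS11 and PPP1CA did, beside 3.35% and 1.44% of all protein-coding genes. Over the INTS11 start, replicate 1 had a single peak of 24585 bp, which also reached CPTP, DVL1 and TAS1R3. Replicate 2 had a peak of 1443 bp at the start and another of 13011 bp upstream of it. The strongest replicate 2 peak of INTS11, with a fold of 12.7, had its summit 16415 bp from the start, beyond the far end of the gene.

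PPP1CA lay under a replicate 1 peak of 26553 bp, which replicate 2 held as 3 peaks with folds of 12.0, 11.5 and 9.53. INTS1 had the highest fold of all members, 33.8 in replicate 1, but in a peak of 32276 bp whose summit lay 44648 bp from its canonical start and which also reached MICALL2. Replicate 2 held 4 peaks over the same stretch, with folds of 3.71 to 11.1, and its strongest INTS1 promoter peak had a fold of 7.73. Near the canonical start, the strongest INTS1 peaks had folds of 5.74 and 5.65, with summits at different places, −192 bp and 946 bp. The high value thus described the region beyond the gene. INTS3 was the remaining member whose strongest peaks did not overlap, with a fold of 7.38 at its start in replicate 1 and 5.63 near SLC27A3, past its 3′ end, in replicate 2, where the start had a fold of 4.08.

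**Figure D4:**
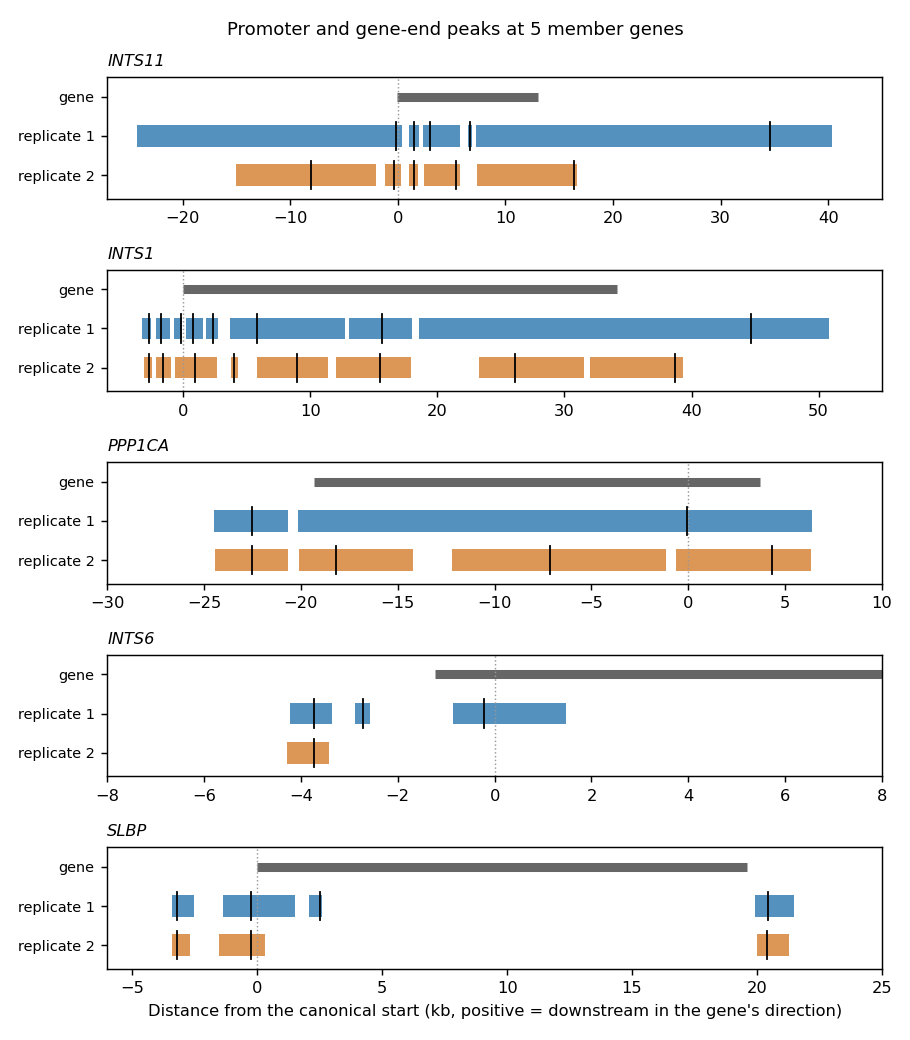
Promoter and gene-end peaks of INTS11, INTS1, PPP1CA, INTS6 and SLBP by distance from the canonical start (horizontal axis, kb, positive downstream). Grey bars are the genes, blue bars replicate 1 peaks, orange bars replicate 2 peaks, and black ticks summits; other peaks inside the genes are not drawn. Wide replicate 1 peaks at INTS11 and PPP1CA are split in replicate 2, INTS6 has a start peak in replicate 1 alone, and SLBP has a peak past its end in both.

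NUDT21 binds RNA near poly(A) sites, so the ends of these genes were examined as well. A gene-end peak was a peak outside the promoters of any gene with its summit within 1000 bp of the gene's 3′ boundary. SLBP was the only member with one in both replicates, 1 of 38 or 2.63% (Wilson 95% interval 0.466% to 13.5%), beside 3.74% of all protein-coding genes and 4.21% after GC weighting. Its folds were 3.15 and 3.37, from 40 and 23 fragments over control levels of 11 and 6.13, with summits 856 bp and 808 bp downstream of the gene at chr4:1690847-1692391 and chr4:1691029-1692330. These folds were far below those at the SLBP start. The share of members was near that of all genes.

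Poly(A) signals and the word bound by NUDT21 were counted at the members' ends. In the last 100 bases of the canonical transcript, AATAAA was found in 28 of 38 members (73.7%, all protein-coding genes 65.8%), and AATAAA or ATTAAA in 31 (81.6%, all 79.5%). TGTA was found in 15 (39.5%, all 51.9%). CPSF3, which makes the cut, had both words in its own end, at chr2:9473015-9473044 and chr2:9473062-9473091 (hg38, + strand). Capitals mark TGTA in the upper line and AATAAA in the lower.
CPSF3 upstream: tgagactgtgccTGTAtatgaactttgaaa
CPSF3 signal: tttgttacctaaAATAAAatgcattcgttt
The signal started 28 bases from the annotated end and TGTA 75 bases from it. Neither replicate had a gene-end peak at CPSF3.

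Inside the genes and outside promoters, 8 of 38 members had a peak in both lists, beside 23.7% of all protein-coding genes. WDR33 had the most, 11 in replicate 1 with folds of 2.37 to 8.31 and 6 in replicate 2 with folds of 2.79 to 8.36. SSU72 had 6 in each list, with folds of 3.70 to 8.06 and 4.32 to 7.78, and SYMPK had 5 in each. The other members with such peaks in both lists were CPSF3, SLBP, INTS2, CSTF1 and SCAF4, with 1 to 5 in a list.

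Short words known from promoters were counted in the 250 bp before to 50 bp after the canonical start, on both strands. None of the words searched contains another. CCGGAA was found in 17 of 38 members (44.7%), beside 22.8% of all protein-coding promoters and 28% of those with a promoter peak in both lists. It was present in 13 of the 31 members with peaks in both lists and in 4 of the 7 others. GGGCGG was found in 25 members (65.8%, all 61.3%). Among the 31 with peaks in both lists it was in 19, a lower share than the 72.2% of all promoters with such peaks. CCAAT was found in 16 members (42.1%, all 36.1%, all with peaks in both lists 35.8%). GCGCATGCG, the NRF1 word, was found in INTS7, FIP1L1 and INTS5 (7.89%, all 2.7%, all with peaks in both lists 3.75%). AAGATGGC, the YY1 word, was found in WDR33, SYMPK and CSTF1 (7.89%, all 4.04%, all with peaks in both lists 5.39%). TGTA was found in 12 promoters (31.6%), beside 50% of all and 43.2% of those with a promoter peak in both lists. A match is a run of letters and was not tested as a binding site.

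As a reference within the pathway, 18 further genes of 3′ end processing and Integrator function were examined, among them NUDT21 itself, its partners CPSF6 and CPSF7, and CLP1 and PCF11 of cleavage factor IIm. Of these, 17 of 18 had promoter peaks in both lists, beside 57% of all protein-coding genes. INTS6L, a paralog of INTS6, was the exception with a peak in replicate 1 alone. Their median percentiles were 82.6 and 52.2, beside 85.4 and 81.3 for the members and 76.4 and 72.6 for all protein-coding genes. In replicate 2 these pathway genes thus ranked below both the members and all genes. NUDT21 had folds of 6.74 and 4.49 at a start shared with OGFOD1, and its percentiles were 86.0 and 52.2. INIP, a subunit of the single-strand DNA-binding complex that contains INTS3, had folds of 19.3 and 12.6, close to those of SSU72. Gene-end peaks in both lists were found at WDR82 and INTS15, 2 of 18, beside 3.74% of all protein-coding genes.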

How the data were processed

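J.gamma1 cells were profiled by NUDT21 CUT&Tag in 2 replicates of 1 group. The submitters' processing notes name fastp, Bowtie2 2.2.5, MACS3 3.0.1 and hg38, and the authors called peaks in each replicate separately. The call parameters are not given in the sources used here, which describe no control library. For each peak, the deposited columns hold the fold over the caller's background, here called the control level (a ratio), −log10 p, −log10 q and a display score, which was not used. Fragments at a summit and the control level were derived from those deposited values, since MACS computes the fold from both and p as a Poisson tail. Of 2000 sampled peaks, 99.95% in replicate 1 (pileup scaled by 0.921) and 100% in replicate 2 had such a solution. Such scaling arises when MACS sets a library against a control of another depth, so the folds may be relative to a control sample. The recovery and the peak assignment were tested on simulated data.

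Peaks were assigned to GENCODE 44 genes with Python 3.11.15, pandas 2.3.3 and scipy 1.17.1. Intervals are Wilson for shares and exact Poisson for fragments, and cover counting error only. The members and lists were chosen with earlier results of these data known. Described at length were, per group, the genes with the highest and the lowest mean percentile (2 of each for Integrator), all genes without a promoter peak in both lists, those with a gene-end peak, and those whose strongest peaks did not overlap. The other members were added for their roles, with their values known. RefSeq promoters matched 30 of the 38 genes. Alternatives were other thresholds, distances, start and end definitions, rank measures and GC windows, and each replicate alone.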

Additional observations from a re-analysis of the deposited data

How the results depend on the processing

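Of the 31 members with a promoter peak in both replicates, 18 kept one among the 10000 strongest peaks of each list, beside 24.6% of all protein-coding genes; other distances, start definitions and the −log10 q minimum gave 30 or 31, and a single replicate 33 to 35. The gene-end count of 1 became 0 with 10000 peaks or within 500 bp, 2 within 2000 bp (SCAF4 and SLBP) or with promoter peaks included (INTS5 and SLBP), and 4 with any transcript end (CSTF1, SCAF4, SLBP and SYMPK), and was 1 in either replicate alone. The median percentile of 83.3 became 88.2 by −log10 q, 79.8 at the canonical start and 61.3 when ranked among genes with 1 peak per gene, and was 81.3 to 85.4 in single replicates. The ranking with 1 peak per gene centres all genes on the midpoint of its scale. The values by −log10 q and at the canonical start are given without a value over all genes. The GC-weighted share of 65.1% was 66.4% and 65% with other windows and bins. For peaks with an edge within 1000 bp of the canonical start, the mean fold of CPSF1 was 7.22 in place of 10.7. That of INTS1 was 5.69 in place of 20.8, and INTS6 gave no value. The causes of these differences were not tested beyond the settings themselves.

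No paired analysis was possible because both libraries belong to the same group. Summits of replicate 2 had fewer stacked fragments than those of replicate 1 (medians of 20 and 30), and the part of depth in its shorter list was not tested. No control antibody library was analysed here, and whether the control levels behind the folds came from one is not known, so the part of general promoter accessibility in these peaks was not tested.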
